A study of Mus musculus with 24 samples.

Results

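Interferon-stimulated genes were followed in bone marrow-derived macrophages that were grown without or with IL-4. The set held 39 genes listed by name, and it was chosen by annotation alone: the value of a gene was the mean log2 ratio over all probe sets that carried its symbol and no other. Of the 39 genes, 36 were measured out of 18193 genes on the array. Isg15 was covered only by a probe set shared with other genes, and it was not analysed here, nor were Oas1g and Ifi44.

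The study asked how far PPARγ, a lipid-activated nuclear receptor, contributes to the IL-4 response of macrophages. Marrow of 3 Pparg fl/- LysCre mice (mice 4 to 6) and 3 Pparg+/- LysCre mice (mice 1 to 3), all C57Bl/6, was cultured for 10 days. All cultures shared the growth factor M-CSF at 20 ng/ml. Cells received 20 ng/ml IL-4 or none (control), and 1 µM rosiglitazone (RSG), a PPARγ agonist, or vehicle, DMSO with ethanol. By the numbers in the labels, each mouse gave 1 culture to each of these 4 conditions. This made 8 groups of 3 Affymetrix mouse expression arrays and 24 arrays in all. Both genotypes carried LysCre, in which Cre is made from the lysozyme locus, and both lacked 1 working Pparg allele. The remaining allele was floxed in Pparg fl/- cells, so that it could be removed in the myeloid lineage, while Pparg+/- cells kept it. No group had 2 intact alleles.

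Type I interferons act through a receptor shared by nearly all cells, and the kinases on it activate a complex that contains STAT2 and IRF9 and binds the interferon-stimulated response element. Interferon-γ uses another receptor. In macrophages a low tonic interferon signal keeps many of these antiviral genes on without infection. IL-4 acts through STAT6 and marks the alternatively activated state.

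Expression is given as the deposited ratio, in which 1 is close to the median of a probe set over the arrays, so that levels of different genes cannot be set against each other. Median ratios of the arrays lay between 0.906 and 1.08. The Pparg transcript itself had ratios of 0.578 to 3.16 in Pparg fl/- cultures and 0.362 to 2.02 in Pparg+/- cultures. Whether its probes lie in the part that Cre removes is not given in the sources used here, so this does not check the genotype. Fabp4, a target gene of PPARγ, had ratios of 0.848, 0.559 and 0.587 with RSG in IL-4-treated Pparg fl/- cells, against 0.441, 0.399 and 0.368 with vehicle. In IL-4-treated Pparg+/- cells it had 1.52, 1.05 and 1.14 with RSG, against 0.691, 0.535 and 0.547 with vehicle. A ratio does not tell whether a marker of a cell type is present, so the macrophage label could not be tested on it. Because bulk RNA was measured, fewer cells of a type and less RNA per cell cannot be told apart.

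One array had been singled out in advance as high in interferon-stimulated genes, so the values below describe it and are no separate evidence of it. On the Pparg+/- control vehicle array of mouse 1 the mean log2 ratio of the 36 genes was 2.16, while it lay between -0.70 and 0.61 on the other 23 arrays. On that array 26 of the 36 genes exceeded a log2 ratio of 1, and on any other array at most 9 did. The 3'-to-5' log2 difference of the Gapdh control probe sets was -0.005 on that array and -0.076 to 0.107 on the others, and the spread of all genes about their group means was 0.56, within the 0.53 to 0.63 of the others.

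**Figure D1:**
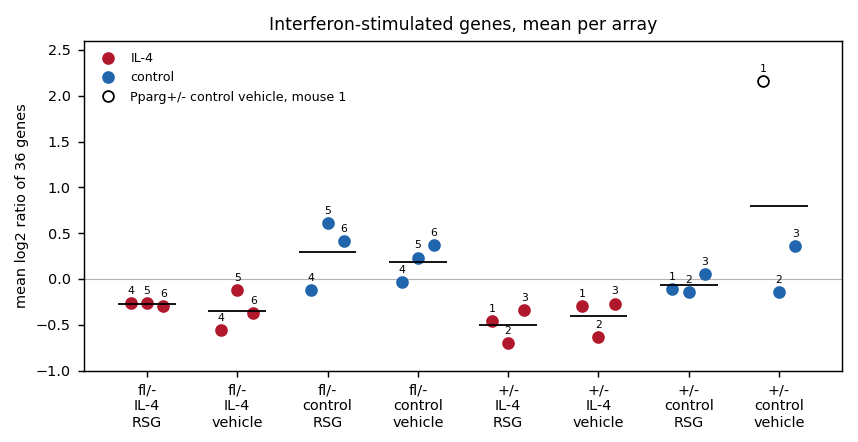
Mean log2 ratio of the 36 interferon-stimulated genes on each of the 24 arrays, by genotype, activation and treatment. Each point is 1 array with its mouse number and each line is the mean of 3. The open circle at 2.16 is the Pparg+/- control vehicle array of mouse 1, and all other arrays lie between -0.70 and 0.61.

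Relative to the mean of mice 2 and 3 in the same group, 25 of the 36 genes were at least 2-fold higher on the array of mouse 1 and none was 2-fold lower. Here and below, such means over the other mice were taken on the log2 scale. Of all genes, 8.2% were at least 2-fold higher there. The median excess of the set was 1.77 on the log2 scale, against 0.05 over all genes. On this array 34 of the 36 genes had their highest ratio of the series, as did 629 of all 18193 genes. The exceptions were Usp18 and Mx2. These are values of 1 array, and no test was made.

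The highest excess was found among genes that are also known as targets of interferon-γ. Iigp1, an immunity-related GTPase that acts on the vacuoles of intracellular pathogens, had a ratio of 108 in mouse 1, against 0.704 and 1.14 in mice 2 and 3. Cxcl9, a chemokine that draws activated T cells, had 45.2, against 0.276 and 0.784. Their excess was 121-fold and 97.2-fold, and of all genes only Acod1, the enzyme that makes itaconate, had a larger one (283-fold). Gbp2, a guanylate-binding GTPase, was 23.9-fold higher on this array and Cxcl10, another chemokine for the same receptor, 20.3-fold. The transcript of interferon-γ itself, Ifng, had a ratio of 2.84 in mouse 1, against 0.25 and 0.147. Of the other 4 interferon genes listed, Ifna1 was 3.27-fold above the mean of mice 2 and 3, Ifnb1 1.02-fold, Ifna2 0.597-fold and Ifna4 0.356-fold. Among 11 inflammatory genes Ccl5 (22.4, against 1.64 and 1.9) and Il1b were at least 2-fold higher, while Il6 was at 0.172 of the mean of mice 2 and 3. The feedback inhibitor Socs3 had 13.0, against 1.83 and 1.52.

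The smallest excess was that of Mx2, Ddx58, Irf9 and Eif2ak2. Ddx58 (RIG-I) was 1.48-fold, Irf9 1.5-fold and Eif2ak2 1.51-fold above the mean of the other mice, and Mx2 1.07-fold. Of 7 markers of T and NK cells, 6 were at least 2-fold above the mean of mice 2 and 3, and Cd3e was at 0.682 of it. Ncr1, 1 of the 6, was still below mouse 3 (1.02, against 0.185 and 1.09). The mean log2 ratio of that list was 0.15, against -1.18 and -1.09 on the arrays of mice 2 and 3. On IL-4 arrays it ranged from -0.476 to 0.957. Neither of the lists for plasmacytoid and conventional dendritic cells had a member 2-fold higher. The part of interferon-γ or of other cell types in the excess was not tested. The excess did not extend to the other 3 cultures of mouse 1, where 2, 2 and 0 of the 36 genes were at least 2-fold above the other mice of their group and the median excess was -0.03 with IL-4 and RSG, 0.18 with IL-4 and vehicle and 0.01 with RSG alone. For comparisons that use this array, the counts of called genes of the set and its median changes are given with and without it. Other values include it unless its omission is stated.

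**Figure D2:**
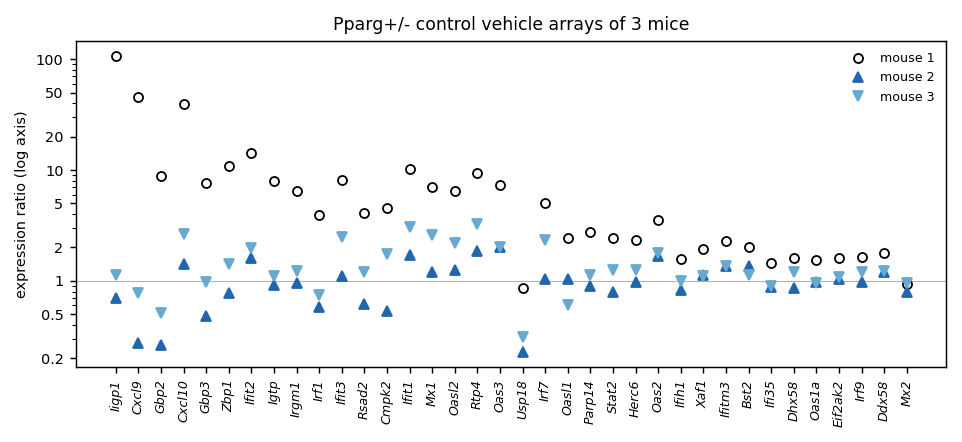
Expression ratio (log axis) of the 36 genes on the 3 Pparg+/- control vehicle arrays, ordered by the log2 excess of mouse 1 over the mean of mice 2 and 3. The ratio of mouse 1 (open circles) is above both others for 35 genes and between them for Mx2, with 108 for Iigp1 at the left.

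With IL-4 the members of the set fell more often than they rose, and Usp18 went the other way. Over the mean of the 4 genotype and treatment strata, 16 of the 36 genes fell and 2, Usp18 and Gbp2, rose (limma, adjusted p under 0.05 over all genes and at least 1.5-fold). Of all genes tested, 9.24% fell and 10.4% rose. The median change of the set was -0.55 on the log2 scale and that of all genes was 0.13. Without the array of mouse 1, 14 of the 36 fell and 4 rose (9.09% and 10.3% of all genes) and the median was -0.37. Eif2ak2 and Stat2 then changed less than 1.5-fold, and Gbp3 and Irf1 were added to the genes that rose.

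With vehicle, 7 of the 36 genes fell and 1 rose in Pparg fl/- cells, where 7.69% of all genes fell and 8.59% rose. The same comparison in Pparg+/- cells gave 17 lower genes and 1 higher gene (6.57% and 8.01% of all genes). Leaving out the array of mouse 1 gave 9 and 2 (5.58% and 7.63%), and the median change was -0.41 in place of -1.04. The 9 were Rtp4, Oas3, Oas2, Ifit1, Ifit2, Irf7, Bst2, Ifitm3 and Ddx58, all of which had fallen with the array as well. Cxcl10, Eif2ak2, Herc6, Ifit3, Irf9, Mx1, Oasl2 and Stat2 passed only with it. With RSG in place of vehicle, Pparg fl/- cells had 12 lower genes and 1 higher gene (6.94% and 7.67% of all genes) and Pparg+/- cells 9 and 1 (6.15% and 6.78%). Bst2, Ifitm3, Irf7, Oas2, Oas3 and Rtp4 fell in all 4 strata, as did 4.11% of all genes, and Usp18 rose in all 4, as did 4.26%. In none of the strata did 18 of the 36 genes pass, against 76.1% of all genes. All 8 groups share 1 spread per gene in the fit, so the array of mouse 1 also enters the errors of strata that do not hold it. Counts without it are not given here for those strata or over all 4 strata.

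The IL-4 and control arrays did not overlap for 11 genes. For Ifit1, Ifit2, Irf7, Oas2, Oas3, Oasl2, Rtp4, Cxcl10, Bst2 and Eif2ak2 every IL-4 array lay below every control array, which held for 4.78% of all genes (4.89% without the array of mouse 1, with the same 10 members). Usp18 lay above on every IL-4 array, as did 5.68% of all genes. Gbp2 joined it once the array of mouse 1 was left out (5.84% of all genes).

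Genes of several other lists moved with IL-4 in the mean of the strata, where 9.24% of all genes fell and 10.4% rose. Of 4 markers of alternative activation 3 rose. Of 8 neutrophil markers 7 fell, and the mean log2 ratio of the list was -3.943 to -2.996 on IL-4 arrays and 0.47 to 1.61 on control arrays. All 5 stromal markers fell (-2.95 to -1.03 on IL-4 arrays, 0.18 to 2.44 on control arrays). Among macrophage genes Fcgr1, the high-affinity IgG receptor and itself interferon-inducible, fell (-1.66 ± 0.15), as did Mertk (-0.60 ± 0.10), while Itgam rose (0.88 ± 0.07). Of 4 dendritic cell markers measured, Flt3, Zbtb46 and Itgax rose, as did 2 of 7 T and NK cell markers, Gzma and Gzmb. Siglech alone fell among 5 plasmacytoid dendritic cell markers and Cd79b alone among 3 B cell markers. The part of these cells in the fall of the interferon-stimulated genes was not tested.

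**Figure D3:**
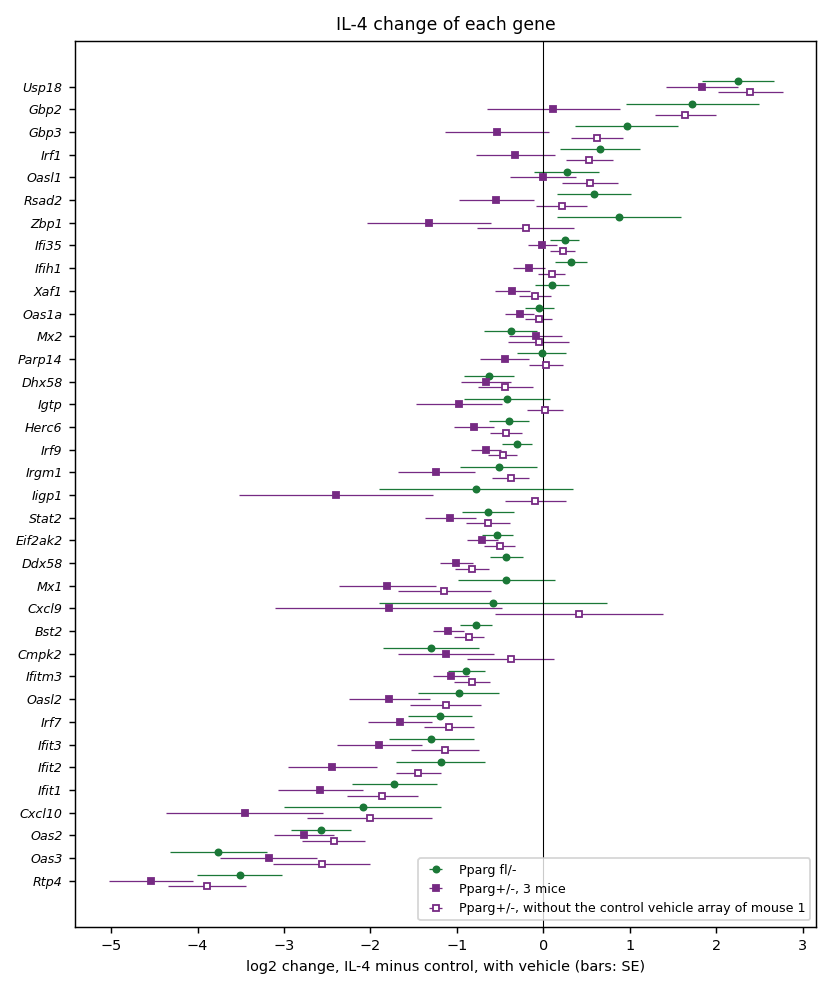
Log2 change of each gene, IL-4 minus control with vehicle, ± SE from limma, ordered by the mean change over the 4 strata. Circles are Pparg fl/- cells, filled squares Pparg+/- cells and open squares Pparg+/- cells without the control vehicle array of mouse 1. Rtp4 and Oas3 are at -3.52 and -3.76 in Pparg fl/- cells and Usp18 is at 2.25. For Iigp1 the filled square is at -2.40 and the open square at -0.09.

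Some proteins of the oligoadenylate synthetase family switch on RNase L when they meet double-stranded RNA. The genes of this family split into members that fell and members that did not. Oas3 had ratios of 0.299, 0.165 and 0.167 in IL-4-treated Pparg fl/- cells, against 2.51, 2.94 and 2.78 in controls. With IL-4, Pparg+/- cells had 0.683, 0.325 and 0.183, against 7.34, 2.04 and 2.02. No array of either genotype overlapped. The change was -3.76 ± 0.56 in Pparg fl/- (adjusted p = 5.6e-05) and -3.18 ± 0.56 in Pparg+/- cells (adjusted p = 0.00035), and -2.56 ± 0.56 without the array of mouse 1 (adjusted p = 0.0035).

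Oas2 fell in all 4 strata too. Its ratios were 0.364, 0.323 and 0.349 with IL-4 in Pparg fl/- cells, against 1.97, 1.81 and 2.42 without. In Pparg+/- cells they were 0.351, 0.223 and 0.423, against 3.52, 1.68 and 1.77. It fell 5.95-fold and 6.81-fold (adjusted p = 1.9e-05 and 9e-06), and its change was -2.43 ± 0.37 in Pparg+/- cells without the array of mouse 1. Oasl2 had 0.665, 0.983 and 0.766 in IL-4-treated Pparg fl/- cells, against 1.02, 1.93 and 1.96, and 0.96, 0.518 and 0.868 in IL-4-treated Pparg+/- cells, against 6.44, 1.24 and 2.21. It fell in the mean of the strata (-1.28 ± 0.23, adjusted p = 0.00017). Oas1a and Oasl1 did not pass, with mean changes of -0.15 ± 0.08 and 0.29 ± 0.19. Without the array of mouse 1 these were -0.094 ± 0.071 and 0.426 ± 0.150 (adjusted p = 0.34 and 0.032), both under 1.5-fold. Oasl1 was higher with IL-4 in 9 of 12 pairs of cultures from 1 mouse under 1 treatment.

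The Ifit proteins bind viral RNA that lacks the host's cap marks, and all 3 fell in the mean of the strata. Ifit1 had ratios of 0.292, 0.584 and 0.625 in IL-4-treated Pparg fl/- cells, against 1.13, 1.7 and 1.99 in controls. In IL-4-treated Pparg+/- cells it had 0.866, 0.402 and 0.717, against 10.2, 1.7 and 3.09 in controls. The arrays did not overlap in either genotype, and Ifit1 fell 3.3-fold in Pparg fl/- and 5.98-fold in Pparg+/- cells (adjusted p = 0.015 and 0.00072). Without the array of mouse 1 the fall in Pparg+/- cells was 3.64-fold (adjusted p = 0.0036). The call in Pparg fl/- cells was lost when any 1 of the 3 mice was left out. Ifit2 had 0.598, 0.788 and 0.744, against 1.46, 1.79 and 1.59, in Pparg fl/- cells and 0.539, 0.659 and 0.81, against 14.3, 1.62 and 1.99, in Pparg+/- cells. Ifit3 had 0.491, 0.637 and 0.673, against 1.01, 1.51 and 2.03, in Pparg fl/- cells and 1.09, 0.71 and 0.554, against 8.12, 1.1 and 2.5, in Pparg+/- cells. With mouse as a block Ifit3 also passed in Pparg fl/- cells (-1.30, adjusted p = 0.035), against an adjusted p of 0.07 without the block. In Pparg+/- cells the Ifit3 groups nearly met, at 1.09 with IL-4 and 1.1 without. In the mean of the strata Ifit1, Ifit2 and Ifit3 changed by -1.87 ± 0.25, -1.69 ± 0.26 and -1.41 ± 0.25, and each was lower with IL-4 in 12 of 12 pairs.

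Of the transcription factors, Irf7, which amplifies the type I interferon response, fell in every stratum. It had ratios of 0.889, 0.921 and 0.745 in IL-4-treated Pparg fl/- cells, against 1.83, 1.87 and 2.13. In Pparg+/- cells it had 0.793, 0.569 and 0.863, against 5.01, 1.04 and 2.33. The control of mouse 2, at 1.04, was the closest to the IL-4 arrays. Irf7 fell 2.28-fold in Pparg fl/- cells (adjusted p = 0.026) and 3.15-fold in Pparg+/- cells (adjusted p = 0.003), where its change was -1.09 ± 0.29 without the array of mouse 1 (adjusted p = 0.014). Its adjusted p in Pparg fl/- cells did not pass when any 1 of the 3 mice was left out, with vehicle or with RSG.

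Stat2 and Irf9 are parts of the factor that binds the response element. Stat2 had 0.749, 0.808 and 0.85 in IL-4-treated Pparg fl/- cells, against 1.22, 1.22 and 1.32, and 0.745, 0.406 and 0.855 in IL-4-treated Pparg+/- cells, against 2.44, 0.792 and 1.25. Irf9 had 0.789, 1.14 and 0.889, against 1.02, 1.19 and 1.24, in Pparg fl/- cells and 0.908, 0.628 and 0.852, against 1.63, 0.98 and 1.21, in Pparg+/- cells. Both passed in Pparg+/- cells with vehicle only through the array of mouse 1. Irf9 was lower with IL-4 in 12 of 12 pairs with a mean change of -0.47 ± 0.09 (adjusted p = 0.00016), which is under 1.5-fold. Stat2 fell 1.53-fold in the mean of the strata (adjusted p = 0.0026), a call that was lost without mouse 1 or mouse 5. Irf1, a factor that interferon-γ switches on, went the other way. It had 1.06, 1.51 and 1.09 in IL-4-treated Pparg fl/- cells, against 0.703, 0.709 and 0.903, and 1.12, 0.719 and 1.07 in IL-4-treated Pparg+/- cells, against 3.89, 0.578 and 0.743. Apart from the control of mouse 1 only the IL-4 value of mouse 2 lay within the range of the control arrays of its genotype. Irf1 was higher with IL-4 in 11 of 12 pairs, and without the array of mouse 1 it rose in the mean of the strata by 0.68 ± 0.12 (adjusted p = 0.00021).

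Of the 5 sensors and kinases for viral nucleic acid, 2 fell in the mean of the strata. Ddx58 (RIG-I), which detects RNA with a free triphosphate, had ratios of 0.731, 0.907 and 0.961 in IL-4-treated Pparg fl/- cells, against 0.938, 1.24 and 1.34. In Pparg+/- cells it had 0.741, 0.517 and 0.839, against 1.79, 1.2 and 1.22. The groups overlapped in Pparg fl/- cells only. Ddx58 fell 2.01-fold in Pparg+/- cells (adjusted p = 0.00072; -0.82 ± 0.20 without the array of mouse 1, adjusted p = 0.0068) and had a change of -0.43 ± 0.19 in Pparg fl/- cells (adjusted p = 0.12). The difference between genotypes did not pass (0.58 ± 0.27, adjusted p = 0.98). Eif2ak2 (PKR), a kinase that stops translation, had 0.648, 0.944 and 0.922, against 1.27, 1.15 and 1.16, in Pparg fl/- cells and 0.768, 0.683 and 0.791, against 1.6, 1.04 and 1.08, in Pparg+/- cells. It fell 1.53-fold in the mean of the strata, a call that was lost without mouse 4. Ifih1 (MDA5), the sensor of long double-stranded RNA, had a mean change of 0.06 ± 0.09, Dhx58 (LGP2) -0.43 ± 0.15 and Zbp1, which binds Z-form nucleic acid, 0.14 ± 0.36, none of them 1.5-fold. Without the array of mouse 1 the changes were 0.13 ± 0.07, -0.37 ± 0.14 and 0.42 ± 0.26 in the same order, again under 1.5-fold. The sign for Ifih1 turned to -0.03 when arrays were centred on their median.

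Mx1, a GTPase, fell in Pparg+/- cells with vehicle only with the array of mouse 1. It had 0.789, 1.02 and 1.12 in IL-4-treated Pparg fl/- cells, against 0.711, 1.38 and 2.25, and 1.09, 0.529 and 0.878 in IL-4-treated Pparg+/- cells, against 6.99, 1.19 and 2.61. These groups overlapped in Pparg fl/- cells. In the mean of the strata Mx1 fell 1.79-fold (adjusted p = 0.023), and 1.59-fold without the array of mouse 1 (adjusted p = 0.04), a call that was lost without mouse 1, 3, 5 or 6. Mx2 had a mean change of -0.16 ± 0.15. Rsad2 (viperin) and Cmpk2, neighbouring genes whose products act on nucleotides, differed. Cmpk2 fell in the mean of the strata (-1.09 ± 0.28, adjusted p = 0.0036), also without the array of mouse 1 (-0.905 ± 0.232, adjusted p = 0.0042). Rsad2 had a change of 0.28 ± 0.22 (adjusted p = 0.35) and was higher with IL-4 in 10 of 12 pairs. Without that array the change of Rsad2 was 0.466 ± 0.135 (adjusted p = 0.0099), which is under 1.5-fold.

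Rtp4, a Golgi chaperone of G protein-coupled receptors, had the largest fall of the set in the mean of the strata (-3.50 on the log2 scale). Its ratios were 0.188, 0.315 and 0.257 in IL-4-treated Pparg fl/- cells, against 2.27, 2.76 and 3.62 in controls. In IL-4-treated Pparg+/- cells they were 0.203, 0.0953 and 0.232, against 9.42, 1.85 and 3.23. Groups were far apart in both genotypes. Rtp4 fell 11.4-fold and 23.3-fold (adjusted p = 2.6e-05 and 1.7e-06), and its change in Pparg+/- cells was -3.89 ± 0.46 without the array of mouse 1, against -4.54 ± 0.49 with it. Its 2 probe sets changed by -3.18 and -3.82 in the mean of the strata.

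Both chemokines were among the genes with a large excess on the array of mouse 1. Cxcl10 had 0.303, 0.399 and 0.225 in IL-4-treated Pparg fl/- cells, against 1.32, 1.42 and 1.12. In Pparg+/- cells it had 0.963, 0.206 and 0.575, against 39.6, 1.43 and 2.65. All IL-4 arrays were below all control arrays. The change was -2.09 ± 0.91 in Pparg fl/- cells (adjusted p = 0.12, or 0.029 with mouse as a block). In Pparg+/- cells it was -3.46 ± 0.91 (adjusted p = 0.0099). Both errors came from the spread that all groups share in the fit, which includes the array of mouse 1. They do not give the spread of the Pparg fl/- cultures alone. Without that array the change in Pparg+/- cells was -2.01 ± 0.72 (adjusted p = 0.068). In the mean of the strata Cxcl10 fell 6.15-fold (adjusted p = 0.0001), and its change was -2.26 ± 0.33 without the array of mouse 1. Cxcl9 had a mean change of -0.93 ± 0.66 (adjusted p = 0.3) and -0.38 ± 0.45 without that array, and it was lower with IL-4 in 7 of 12 pairs.

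The membrane proteins Bst2 (tetherin), which holds budding virus at the cell surface, and Ifitm3, which stops virus from fusing in endosomes, fell in all 4 strata. Bst2 had 0.682, 0.958 and 0.874 in IL-4-treated Pparg fl/- cells, against 1.47, 1.42 and 1.37, and 0.687, 0.703 and 0.653 in IL-4-treated Pparg+/- cells, against 2.03, 1.36 and 1.13. It fell 1.71-fold and 2.14-fold (adjusted p = 0.0041 and 2e-04), and 1.82-fold in Pparg+/- cells without the array of mouse 1 (adjusted p = 0.0015). Ifitm3 had 0.897, 1.05 and 0.914, against 1.68, 1.88 and 1.74, in Pparg fl/- cells and 0.596, 0.968 and 0.799, against 2.28, 1.36 and 1.37, in Pparg+/- cells. It fell 1.85-fold and 2.1-fold (adjusted p = 0.0046 and 0.0011), and 1.77-fold in Pparg+/- cells without the array of mouse 1 (adjusted p = 0.01). Neither gene had overlapping groups. In Pparg fl/- cells the Bst2 call was lost without mouse 4 and the Ifitm3 call without mouse 6, and in Pparg+/- cells the Ifitm3 call was lost without mouse 1.

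Usp18 went against the rest of the set. It encodes the protease that removes ISG15 from proteins and it also blocks signalling from the type I interferon receptor. Usp18 had ratios of 1.14, 1.89 and 1.94 in IL-4-treated Pparg fl/- cells, against 0.251, 0.388 and 0.399 in controls. In Pparg+/- cells with IL-4 it had 1.38, 1.46 and 1.38, against 0.861, 0.228 and 0.313. The highest control value, 0.861, was again that of mouse 1, and even it lay below every IL-4 array. Usp18 rose 4.75-fold in Pparg fl/- cells (adjusted p = 0.00052) and 3.56-fold in Pparg+/- cells (adjusted p = 0.0034), where the change was 2.39 ± 0.38 without the array of mouse 1 (adjusted p = 0.00019). Without mouse 2 or mouse 3 the call in Pparg+/- cells was lost. With RSG it rose 5.32-fold and 5.41-fold (adjusted p = 3e-04 and 0.00031). Herc6, which attaches ISG15 in mice, had 0.711, 1.1 and 0.886, against 1.2, 1.13 and 1.15, in Pparg fl/- cells and 0.787, 0.738 and 0.931, against 2.35, 0.967 and 1.26, in Pparg+/- cells, and it was lower with IL-4 in 12 of 12 pairs (mean change -0.45 ± 0.12, under 1.5-fold). Usp18 thus rose with IL-4, while on the array of mouse 1 it was 3.22-fold above the other mice together with the genes that IL-4 lowered.

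Among the GTPases, Gbp2 behaved like Usp18 once the array of mouse 1 was set aside. Gbp2 had 1.18, 2.01 and 1.39 in IL-4-treated Pparg fl/- cells, against 0.434, 0.414 and 0.511. Pparg+/- cells with IL-4 had 1.32, 0.986 and 1.16, against 8.8, 0.263 and 0.514. The control of mouse 1 was thus the highest and those of mice 2 and 3 the lowest of the 6 Pparg+/- values. Its change in Pparg+/- cells was 0.12 ± 0.77 with that array (adjusted p = 0.95), and it rose by 1.64 ± 0.35 without it (adjusted p = 0.003). The change in Pparg fl/- cells was 1.72 ± 0.77 with all 24 arrays in the fit (adjusted p = 0.13), and in the mean of the strata Gbp2 rose 2.65-fold (adjusted p = 0.0061). Gbp3 had 1.11, 2.36 and 1.56 in IL-4-treated Pparg fl/- cells, against 0.683, 0.896 and 0.904, and 1.15, 1.01 and 1.01 in IL-4-treated Pparg+/- cells, against 7.62, 0.48 and 0.985. Only the control of mouse 1 lay above the IL-4 values of its genotype. Gbp3 rose in the mean of the strata without the array of mouse 1 (0.80 ± 0.14, adjusted p = 0.00014; with it, 0.51 ± 0.30, adjusted p = 0.2). Igtp, Irgm1 and Iigp1 did not meet both thresholds: without that array their mean changes were -0.20 ± 0.10, -0.31 ± 0.10 and 0.01 ± 0.16. With all arrays Irgm1 fell in the mean of the strata when arrays were centred on their median (-0.62, adjusted p = 0.028) or quantile normalized (-0.60, adjusted p = 0.018), and in Pparg+/- cells with vehicle when mouse was a block (-1.24, adjusted p = 0.04). Of the remaining genes, Ifi35, Xaf1 and Parp14, with mean changes of 0.11 ± 0.08, -0.14 ± 0.10 and -0.23 ± 0.14, none passed. The 2 probe sets of Xaf1 differed, since one fell (-0.59 ± 0.13, adjusted p = 0.0011) and the other had a change of 0.30 ± 0.14 (adjusted p = 0.1).

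**Figure D4:**
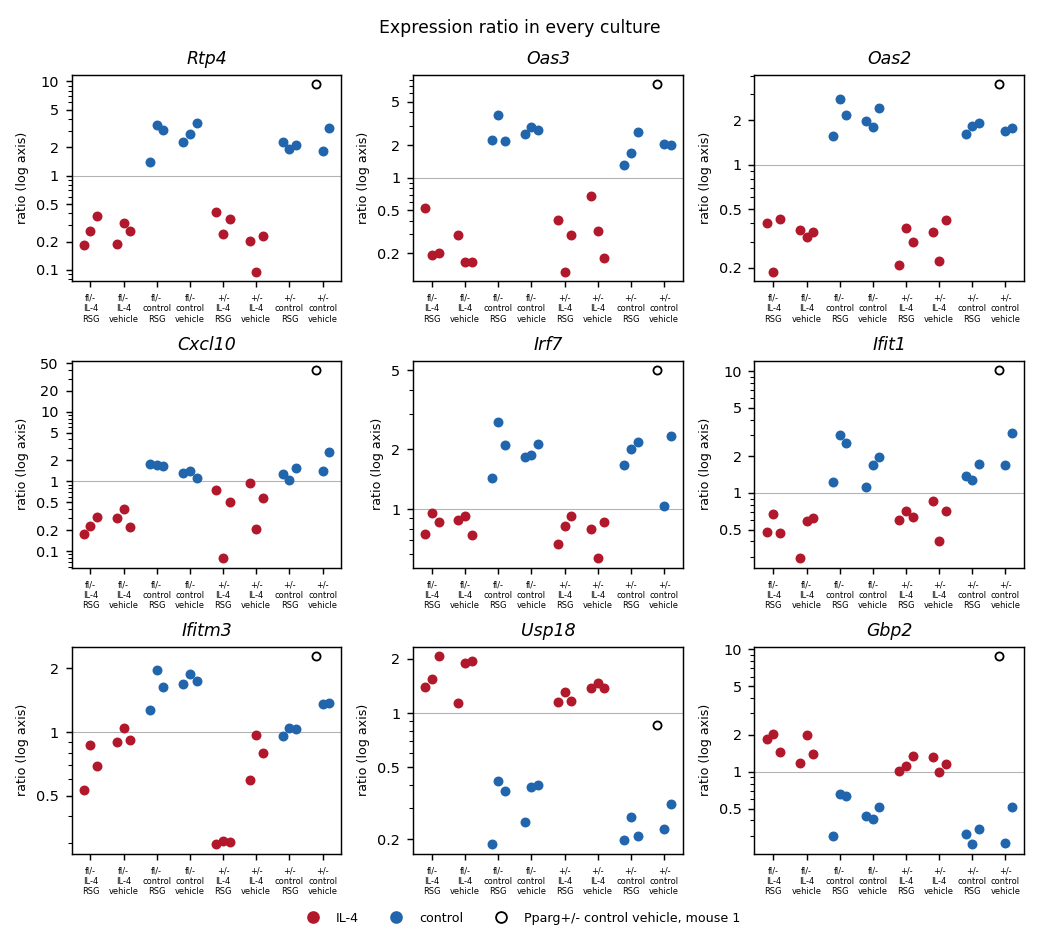
Expression ratio (log axis) of 9 genes in each of the 24 cultures, by group. Red points are IL-4 and blue points control cultures, and the open circle is the Pparg+/- control vehicle array of mouse 1. All red points lie below all others for Rtp4, Oas3, Oas2, Cxcl10, Irf7 and Ifit1 and above all others for Usp18. For Gbp2 only the open circle, at 8.8, is above them, and for Ifitm3 the red points of Pparg+/- cells with RSG are the lowest, at 0.295 to 0.307.

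Promoter windows of 27 of the 36 genes were at hand, from 250 bases before to 50 bases after an annotated start (RefSeq, GRCm38.p6). Not matched were Dhx58, Iigp1, Mx1, Mx2, Oas2, Parp14, Rtp4, Usp18 and Zbp1. The core of the interferon-stimulated response element was searched on both strands as GAAA, any 2 bases, GAAA, with overlapping matches counted separately. It occurred in the windows of 16 of the 27 genes (59.3%), against 3.99% of all 27025 genes with a window. It was found in 9 of the 13 genes that fell with IL-4 in the mean of the strata, in 2 of the 3 that rose there with or without the array of mouse 1 (Gbp2 and Gbp3, not Irf1), and in 5 of the other 11. The STAT-type spacing TTC, 3 bases, GAA was in 8 of the 27 windows (9.55% of all genes), and TTC, 4 bases, GAA, the spacing that STAT6 prefers, in 5 (8.01%). A match is a description of these letters and not a binding site.

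Stretches of 8 windows are shown because they put genes that fell beside genes that rose, with the core in capitals, read 5′ to 3′ on the strand of the gene. The first 6 fell with IL-4 and the last 2 rose without the array of mouse 1.
Oas3 (chr5:120777710-120777749, minus strand): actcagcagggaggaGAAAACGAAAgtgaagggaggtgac
Ifit1 (chr19:34640770-34640828, plus strand): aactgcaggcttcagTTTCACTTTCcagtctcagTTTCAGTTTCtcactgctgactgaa
Ifit3 (chr19:34583358-34583431, plus strand): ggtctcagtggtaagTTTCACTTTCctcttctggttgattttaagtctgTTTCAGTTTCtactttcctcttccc
Cxcl10 (chr5:92349078-92349117, minus strand): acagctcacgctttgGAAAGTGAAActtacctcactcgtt
Bst2 (chr8:71537572-71537617, minus strand): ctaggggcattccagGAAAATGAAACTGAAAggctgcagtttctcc
Ifitm3 (chr7:141010701-141010757, minus strand): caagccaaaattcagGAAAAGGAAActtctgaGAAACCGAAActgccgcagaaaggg
Gbp2 (chr3:142620589-142620628, plus strand): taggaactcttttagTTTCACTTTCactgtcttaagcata
Gbp3 (chr3:142559984-142560029, plus strand): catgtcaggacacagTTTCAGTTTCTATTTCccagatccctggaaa
Ifit1, Ifit3 and Ifitm3 held 2 separate matches each, and Bst2 and Gbp3 held 2 that overlapped. Genes that fell and genes that rose thus both carried the core. Among these 8, Gbp2 and Gbp3 carried it only as TTTC, 2 bases, TTTC, while both orientations occurred among the genes that fell.

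The upstream genes of the pathway did not move as a block. Of 30 listed genes for ligands, receptors, kinases, factors, sensors and inhibitors 29 were measured, and in the mean of the strata 5 rose and 3 fell (10.4% and 9.24% of all genes), with a median change of 0.09, against 0.13 over all genes. Socs1, an inhibitor of JAK kinases, rose the most (3.18 ± 0.29, adjusted p = 3.6e-08). Ptpn2, a phosphatase of JAK and STAT proteins, rose by 1.06 ± 0.07, Jak2 by 1.10 ± 0.09, Ifngr1 by 0.69 ± 0.09 and Irf2 by 0.73 ± 0.09. Socs3 fell (-2.11 ± 0.27, adjusted p = 3.2e-06), as did the RNA receptor Tlr7 (-1.11 ± 0.08) and the DNA sensor Cgas (-0.74 ± 0.11). None of the 5 ligands passed, among them Ifnb1 (-0.29 ± 0.24) and Ifng (1.43 ± 0.59, adjusted p = 0.062). Of 11 inflammatory genes 1 rose, Cd40, and 2 fell, Cxcl2 and Ccl5.

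The IL-4 response of the set did not differ detectably between genotypes. For the difference of the response, Pparg fl/- minus Pparg+/-, none of the 36 genes passed with vehicle or with RSG, where 0.0% and 0.0055% of all genes passed. At an unadjusted p under 0.05, for which no share over all genes was computed here or below, there were 2 and 0 genes. The median difference with vehicle was 0.47 and that of all genes -0.005. Without the array of mouse 1 it was 0.005, with 0 of the 36 and 0.0165% of all genes past the threshold. Over the 18 genes called in the mean of the strata, the difference with vehicle ranged from -0.58 to 1.61 and, without that array, from -1.20 to 0.72.

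RSG alone moved none of the 36 genes past the threshold, by limma or by the methods' t-test. Among Pparg fl/- control cells 0 of 36 passed (0.0% of all genes, 0 at an unadjusted p under 0.05), with a median change of 0.07. For Pparg+/- control cells 0 of 36 passed (0.022% of all genes). Yet 35 of the 36 changes were negative, 15 had an unadjusted p under 0.05 and the median was -0.74, against -0.006 over all genes. Without the array of mouse 1 the median was -0.16, 23 changes were negative and 0 had an unadjusted p under 0.05 (0.022% of all genes passed). This comparison shares its vehicle arrays with the IL-4 comparison of Pparg+/- cells.

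Under IL-4, RSG lowered 1 gene of the set. In IL-4-treated Pparg fl/- cells 0 of 36 genes passed (0.0055% of all genes, 1 at an unadjusted p under 0.05). In IL-4-treated Pparg+/- cells Ifitm3 fell, where 0.39% of all genes passed in either direction. Its ratios were 0.295, 0.307 and 0.303 with RSG, against 0.596, 0.968 and 0.799 with vehicle, a change of -1.36 ± 0.21 (adjusted p = 0.0047). Ifitm3 in IL-4-treated Pparg fl/- cells had 0.535, 0.87 and 0.691 with RSG, against 0.897, 1.05 and 0.914 with vehicle, a change of -0.48 ± 0.21 (adjusted p = 1). Without IL-4 it had 0.961, 1.04 and 1.03 with RSG in Pparg+/- cells, against 2.28, 1.36 and 1.37 with vehicle. This change was -0.44 ± 0.21 without the array of mouse 1 and did not pass. In an added test, the RSG change of Ifitm3 in Pparg+/- cells with IL-4 minus that without was -0.67 ± 0.30. It did not pass over all genes (limma, adjusted p = 0.98), nor without the array of mouse 1 (-0.92 ± 0.28, adjusted p = 0.84). The 3 values with IL-4 and RSG in Pparg+/- cells were the lowest of all 24.

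The comparison of genotypes gave the same gene and no other. Ifitm3 was 2.27-fold higher in Pparg fl/- than in Pparg+/- cells with IL-4 and RSG (0.535, 0.87 and 0.691, against 0.295, 0.307 and 0.303, adjusted p = 0.014), where 0.555% of all genes passed. This comparison uses the same Pparg+/- arrays as the RSG comparison. When mouse 2 or mouse 3 was left out neither call passed, and the genotype call was also lost without mouse 5 or mouse 6. The difference of the RSG response between genotypes under IL-4, a test chosen after these values were seen, was 0.88 ± 0.30 (95% confidence interval 0.25 to 1.51) and did not pass over all genes (adjusted p = 0.93).

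In the other genotype comparisons none of the 36 genes passed, with 0.0% of all genes in control cells with vehicle, 0.011% in control cells with RSG and 0.0% in IL-4-treated cells with vehicle. At an unadjusted p under 0.05 there were 6, 2 and 0 genes of the set. In control cells with vehicle 34 of the 36 differences, Pparg fl/- minus Pparg+/-, were negative with a median of -0.42. Without the array of mouse 1, 11 were negative and the median was 0.17 (0 of 36, and 0.0055% of all genes, passed). The direction of this comparison was thus set by 1 array.

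Within groups, most of the genes were correlated with the rest of the set. Over the 23 arrays other than that of mouse 1, with group means removed, the correlation of each gene with the mean of the other 35 was above 0.5 for 23 genes, had a median of 0.65 and ranged from 0.13 to 0.94. These points share arrays and their scaling. The share of all genes above 0.5 was not computed, so the correlation is not shown to be particular to the set. In Pparg fl/- control cells mouse 4 had the lowest ratio of the 3 mice for 30 of the 36 genes with RSG (38.0% of all genes) and 26 of the 36 with vehicle (28.2% of all genes), and it was a median of 0.56 and 0.19 below the mean of mice 5 and 6 on the log2 scale. Outside the set, the genes most like its mean within groups were Ifi47 (r = 0.913), Ifi209 (0.905), Gadd45b (0.87), Psmb9 (0.862), Slfn2 (0.852), Uba7 (0.852), Asb8 (0.851), H2-T24 (0.845), Klc4 (0.844) and Tmem119 (0.837), over 23 arrays. Across all 24 arrays with group means kept, Ifi47, an immunity-related GTPase, Uba7, the enzyme that activates ISG15, and the immunoproteasome subunit Psmb9 still had correlations of 0.929, 0.892 and 0.79, while Gadd45b and Tmem119 had -0.214 and -0.339.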

How the data were processed

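Total RNA of 24 cultures was hybridized to 1 array each. The authors deposited 1 linear ratio per probe set and array. They had computed signals by GC-RMA in GeneSpring, scaled every array to its median and then every probe set to its own median. A last division by vehicle-treated controls, named in the methods, was not applied to the deposited values. Of 45101 probe sets 34945 had 1 gene symbol, 932 several and 9160 none, 34741 were matched by gene identifier, and 64 were controls. Ratios were log2 transformed without a filter. The lowest ratio, 0.01, was shared by 124 values. Log2 ratios were averaged over the probe sets of a gene. Probe sets ending in x_at or s_at can read related genes.

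The log2 ratios were fitted in limma 3.58.1 under R 4.3.3 (8 group means, mean-variance trend, 15 comparisons, two-sided), with Benjamini-Hochberg adjustment over 18193 genes. Calls needed both an adjusted p below 0.05 and a change of 1.5-fold or more. Changes carry SE. The number of arrays limits the precision. The fit was tested on simulated data with known changes before use. The members, the gene lists and the tests were chosen with earlier results of these data known. Values in every culture with vehicle are given for genes called there, for genes that went against the rest, and for genes called in an RSG or genotype comparison. Groups came from the labels.

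Cultures whose labels carried the same number were taken to come from the same animal, and on that reading the numbers pair the samples. Over all genes, deviations from group means of cultures of 1 mouse correlated with a median of 0.013 (-0.05 to 0.056, 36 pairs). For different mice of a genotype in different groups the median was -0.006 (-0.048 to 0.052, 72 pairs). The alternatives were 1 probe set per gene, array centring, quantile normalization, a filter on low values, a floor of 0.05, leaving out each mouse or the array of mouse 1, mouse as a replicate block, no trend, the methods' t-test, a 2-fold threshold and a fit over probe sets.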

Additional observations from a re-analysis of the deposited data

Results flagged for a closer look

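In 6 cases all 3 mice of one genotype moved one way with RSG and all 3 of the other the opposite way. In control cells 5 of the 36 genes did so (3.73% of all genes), with RSG changes that were positive in Pparg fl/- and negative in Pparg+/- mice. The difference of the mean change, Pparg fl/- minus Pparg+/-, was 1.81 for Ifit1, 1.34 for Oasl2, 2.09 for Mx1, 2.49 for Cxcl10 and 2.40 for Zbp1. In a test added after these directions were seen, none of the 5 passed over all genes (limma, adjusted p = 0.97 to 1), and without the array of mouse 1 the differences were 1.09, 0.69, 1.43, 1.04 and 1.28. In IL-4-treated cells Oasl1 was the only one (2.43% of all genes), with a difference of 0.66 (0.30 in Pparg fl/- and -0.36 in Pparg+/- mice, adjusted p = 1).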

How the results depend on the processing

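Counts are genes of the set called, out of 36. Without the Pparg+/- control vehicle array of mouse 1, 11 genes were called with IL-4 in Pparg+/- cells with vehicle in place of 18. When each mouse was left out in turn, the counts with IL-4 ranged from 5 to 6 in Pparg fl/- cells with vehicle (8 with all mice), from 6 to 10 with RSG (13), from 12 to 19 in Pparg+/- cells with vehicle and from 6 to 11 with RSG (10), and from 16 to 18 in the mean of the strata. The Ifitm3 call with RSG in IL-4-treated Pparg+/- cells and that between genotypes with IL-4 and RSG ranged from 0 to 1. By the methods' t-test after Benjamini-Hochberg adjustment, 2 genes were called with IL-4 in Pparg+/- cells with vehicle, 5 in Pparg fl/- cells with RSG, and 0 for Ifitm3 in both comparisons. That t-test also added calls in the other strata. In Pparg fl/- cells with vehicle it added Ifit2, Stat2, Cxcl10 and, as a rise, Gbp2 (adjusted p = 0.041). In Pparg+/- cells with RSG it added Ifit1, Ifit3 and, as rises, Gbp2 (adjusted p = 0.0098) and Gbp3. With mouse as a replicate block, where cultures were paired by animal, the counts with IL-4 were 10 and 13 in Pparg fl/- cells with vehicle and RSG, 19 and 11 in Pparg+/- cells and 18 in the mean, and no call was lost. The block added Ifit3 and Cxcl10 in Pparg fl/- cells with vehicle, Irgm1 in Pparg+/- cells with vehicle and Cxcl10 in Pparg+/- cells with RSG. Of 69 single calls, array centring and quantile normalization, which moved the median of all genes by at most 0.105, kept all 69, as did the filter on low values and the floor. Quantile normalization also added Ifit2, Ifit3, Cxcl10 and Eif2ak2 in Pparg fl/- cells with vehicle (12 genes called in place of 8), and both scalings added Irgm1 in the mean of the strata (19 in place of 18). The 1-probe-set choice lost 6, the fit without a trend 1, the methods' t-test 30 of 51 and the 2-fold threshold 16. Leaving out a mouse lost 60 of 264. No call turned its direction. With 3 arrays per group a gene whose replicates spread widely, such as Cxcl9 or Zbp1, had only a loose bound on its change.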
